A study of Homo sapiens with 12 samples.

Results

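The genes described here are 10 regulators of the passage from G1 to S phase, chosen by name: the CDK inhibitors *CDKN1A*, *CDKN1B*, *CDKN1C*, *CDKN2B*, *CDKN2C* and *CDKN2D*, the D cyclins *CCND2* and *CCND3*, and the E cyclins *CCNE1* and *CCNE2*. They are 10 of 38021 gene names in the table of counts. These members and the gene lists used below were chosen with earlier results of these data known. All 10 were listed, and 8 had enough counts to be tested. RNA was sequenced from 786O cells, an established line from a clear cell renal carcinoma that lacks functional VHL, and from WT8 cells, a 786O derivative that expresses wildtype VHL. Each line carried a lentiviral *shControl* (a scrambled sequence) or *shBMAL1*, which gave the 4 groups 786O *shControl*, 786O *shBMAL1*, WT8 *shControl* and WT8 *shBMAL1*, with 3 replicates each. All 4 groups had been infected with a pLKO.1 vector and selected in puromycin, no drug or time series was part of the design, and the labels name a single *shBMAL1*. WT8 and 786O are separately kept populations, so regained VHL and any other difference between the lines cannot be told apart. The labels call the replicates biological but do not say how the cultures were separated, so p-values measure the spread between these samples.

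D cyclins activate CDK4 and CDK6, and E cyclins activate CDK2. Together these kinases phosphorylate the retinoblastoma family of proteins and release E2F factors, which switch on genes of DNA replication, the E cyclins among them. INK4 inhibitors (*CDKN2B*, *CDKN2C*, *CDKN2D*) bind CDK4 and CDK6, and Cip/Kip inhibitors (*CDKN1A*, *CDKN1B*, *CDKN1C*) bind complexes of cyclin and CDK. In clear cell renal carcinoma, loss of VHL stabilizes HIF2α, and genes of the cell cycle are among those known to respond to it. The clock protein BMAL1 binds DNA at E-boxes, and the comparisons ask how its depletion, with and without VHL, goes with transcript levels in renal carcinoma cells.

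The transcripts fell into separate patterns. The 3 measurable G1 cyclins of the list were lowest in WT8 *shControl* and higher in WT8 *shBMAL1*, with *CCNE2* rising 6.01-fold. *CDKN1A* followed the cell line, at 3.84-fold lower in WT8 than in 786O with *shControl*, and hardly the shRNA. *CDKN1C* fell with *shBMAL1* in both lines, 3.02-fold in 786O and 7.11-fold in WT8. *CDKN1B* varied least, with 1.21-fold between its highest and lowest group mean.

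BMAL1 and HIF2α bind short DNA words, so the stretch before the start of the members was searched for them, and 5 windows are shown: both *CDKN2C* windows with an E-box, and those of *CDKN2D*, *CDKN1A* and *CCNE1*, which held many, few and none of the words. The words searched on both strands were the E-box CACGTG, the HIF site core (ACGTG or GCGTG) and the E2F site (TTTCCCGC, TTTCGCGC, TTTGCCGC or TTTGGCGC). The E-box contains the HIF core ACGTG on either strand, so these matches overlap, and each E-box is also counted as 2 HIF cores. Among 35116 promoter windows of 250 bases before a start in RefSeq (GRCh38.p14), 6.34% held an E-box, 43.2% a HIF core and 2.79% an E2F site. RefSeq windows of 7 of the 10 members were used, 11 windows in all. No window was at hand for *CDKN1C* and *CCND2*. *CCNE2* was part of the search, but its matches were left out afterwards by choice and are not reported here. The lack of E2F words below is therefore not a statement about *CCNE2*. The matches below do not cover these genes, and of the E cyclins they cover *CCNE1* only. An E-box occurred in 2 of the 3 *CDKN2C* windows, 220 and 69 bases before the start, and in none of the other windows, and none of the 11 windows held one of the E2F words. HIF cores numbered 3, 2 and 3 in the *CDKN2C* windows, 3 in that of *CDKN2D* and 1 each in those of *CDKN1A* and *CDKN1B* and in 1 of 3 windows of *CCND3*. The *CCNE1* and *CDKN2B* windows held none of the words. Capitals mark the matches, the sequences run 5′ to 3′ on the strand of the gene, and coordinates are of GRCh38.p14.
CDKN2C, upstream start (chr1:50960495-50960744, plus strand): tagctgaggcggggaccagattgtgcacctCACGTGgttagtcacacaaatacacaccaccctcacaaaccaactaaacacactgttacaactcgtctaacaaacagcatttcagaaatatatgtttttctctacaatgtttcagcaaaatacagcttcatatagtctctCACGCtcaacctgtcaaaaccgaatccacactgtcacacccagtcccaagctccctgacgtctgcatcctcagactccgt
CDKN2C, downstream start (chr1:50969995-50970244, plus strand): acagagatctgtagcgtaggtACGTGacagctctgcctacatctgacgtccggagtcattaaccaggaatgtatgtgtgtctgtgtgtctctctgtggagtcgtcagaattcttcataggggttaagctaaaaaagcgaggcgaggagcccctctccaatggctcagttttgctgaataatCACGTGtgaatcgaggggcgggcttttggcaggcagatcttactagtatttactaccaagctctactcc
CDKN2D (chr19:10568980-10569229, minus strand): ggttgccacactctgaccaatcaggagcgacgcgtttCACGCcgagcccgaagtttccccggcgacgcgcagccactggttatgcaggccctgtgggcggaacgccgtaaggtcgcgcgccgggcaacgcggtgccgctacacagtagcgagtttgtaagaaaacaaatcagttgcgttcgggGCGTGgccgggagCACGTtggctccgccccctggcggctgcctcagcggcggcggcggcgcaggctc
CDKN1A (chr6:36678464-36678713, plus strand): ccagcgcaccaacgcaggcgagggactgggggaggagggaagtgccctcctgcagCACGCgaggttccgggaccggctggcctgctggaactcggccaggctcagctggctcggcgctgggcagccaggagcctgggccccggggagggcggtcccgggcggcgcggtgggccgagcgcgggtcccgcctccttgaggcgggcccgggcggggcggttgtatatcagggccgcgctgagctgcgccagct
CCNE1 (chr19:29811741-29811990, plus strand): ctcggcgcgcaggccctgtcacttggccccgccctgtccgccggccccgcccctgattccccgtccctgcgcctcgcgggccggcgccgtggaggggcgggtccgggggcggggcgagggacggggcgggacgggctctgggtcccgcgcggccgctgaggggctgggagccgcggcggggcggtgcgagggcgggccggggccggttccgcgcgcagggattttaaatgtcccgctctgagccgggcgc
A match is a run of letters in this window and not a measured binding site.

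Total counts were 33182005 to 36477484 per library, and 15127 to 15953 genes had at least 10 counts. In *ARNTL*, the name under which the table lists *BMAL1*, the level was 12.1 ± 1.37 CPM (the count relative to the scaled size of its library, SD, n = 3) in 786O *shControl* and 3.94 ± 0.220 in 786O *shBMAL1*, and in WT8 it was 9.24 ± 0.967 and 1.66 ± 0.236. *VHL* stood at 18.8 ± 1.58 CPM in 786O *shControl* and 981 ± 56.5 in WT8 *shControl*. It was 19.4 ± 1.62 CPM in 786O *shBMAL1* and 647 ± 15.1 in WT8 *shBMAL1*, and so it was also lower with *shBMAL1* in WT8 (log2 change −0.60, SE 0.05, adjusted p = 6.67e-13). All 8 renal markers were counted in every library, with a summed level of 3551 to 6588 CPM. *VIM* held the largest part, at a mean of 4481 of 6056 CPM in 786O *shControl* and 1822 of 3637 in WT8 *shBMAL1*. *LHX1* had a mean of 2.22 CPM in WT8 *shControl*. The blood cell markers *PTPRC*, *CD3E* and *LYZ* had 0 to 2 counts per library. *CD68*, the only gene of that list tested, was counted in every library. It had 1503 counts and 43.0 CPM at most, in 786O *shControl*, and 647 counts and 17.3 CPM at least, in WT8 *shBMAL1*. Endothelial markers summed to 0.0288 to 1.47 CPM and fibroblast markers to 2.96 to 12.3 CPM, lowest in WT8 *shControl*. In libraries of bulk RNA, a smaller number of cells of a kind and less RNA per cell cannot be told apart.

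Adjusted p-values below are Benjamini-Hochberg values over all 16838 genes tested with edgeR's quasi-likelihood test, and a gene is called where this value is under 0.1. Many genes were called. With *shBMAL1* in 786O, 48.9% of the genes passed (24.5% higher and 24.4% lower), and 3 of 8 members were called, 2 higher and 1 lower. With *shBMAL1* in WT8, 69.8% were called (32.9% higher and 36.9% lower), and 7 of 8 members, 5 higher and 2 lower. In WT8 against 786O with *shControl*, 79.5% were called (39.3% higher and 40.2% lower), and 8 of 8 members, 3 higher and 5 lower. In WT8 against 786O with *shBMAL1*, 73.0% were called (36.0% higher and 37.0% lower), and 5 of 8 members, 2 higher and 3 lower. For the interaction, the WT8 effect of *shBMAL1* less its 786O effect on the log2 scale, 56.0% were called (27.4% higher and 28.5% lower), and 6 of 8 members, 4 higher and 2 lower. With 8 genes against backgrounds this high, the numbers of members called are not read as a result, and the sizes of change are given below. The comparisons share libraries: WT8 *shControl* enters the change with *shBMAL1* in WT8, the difference between the lines and the interaction.

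**Figure D1:**
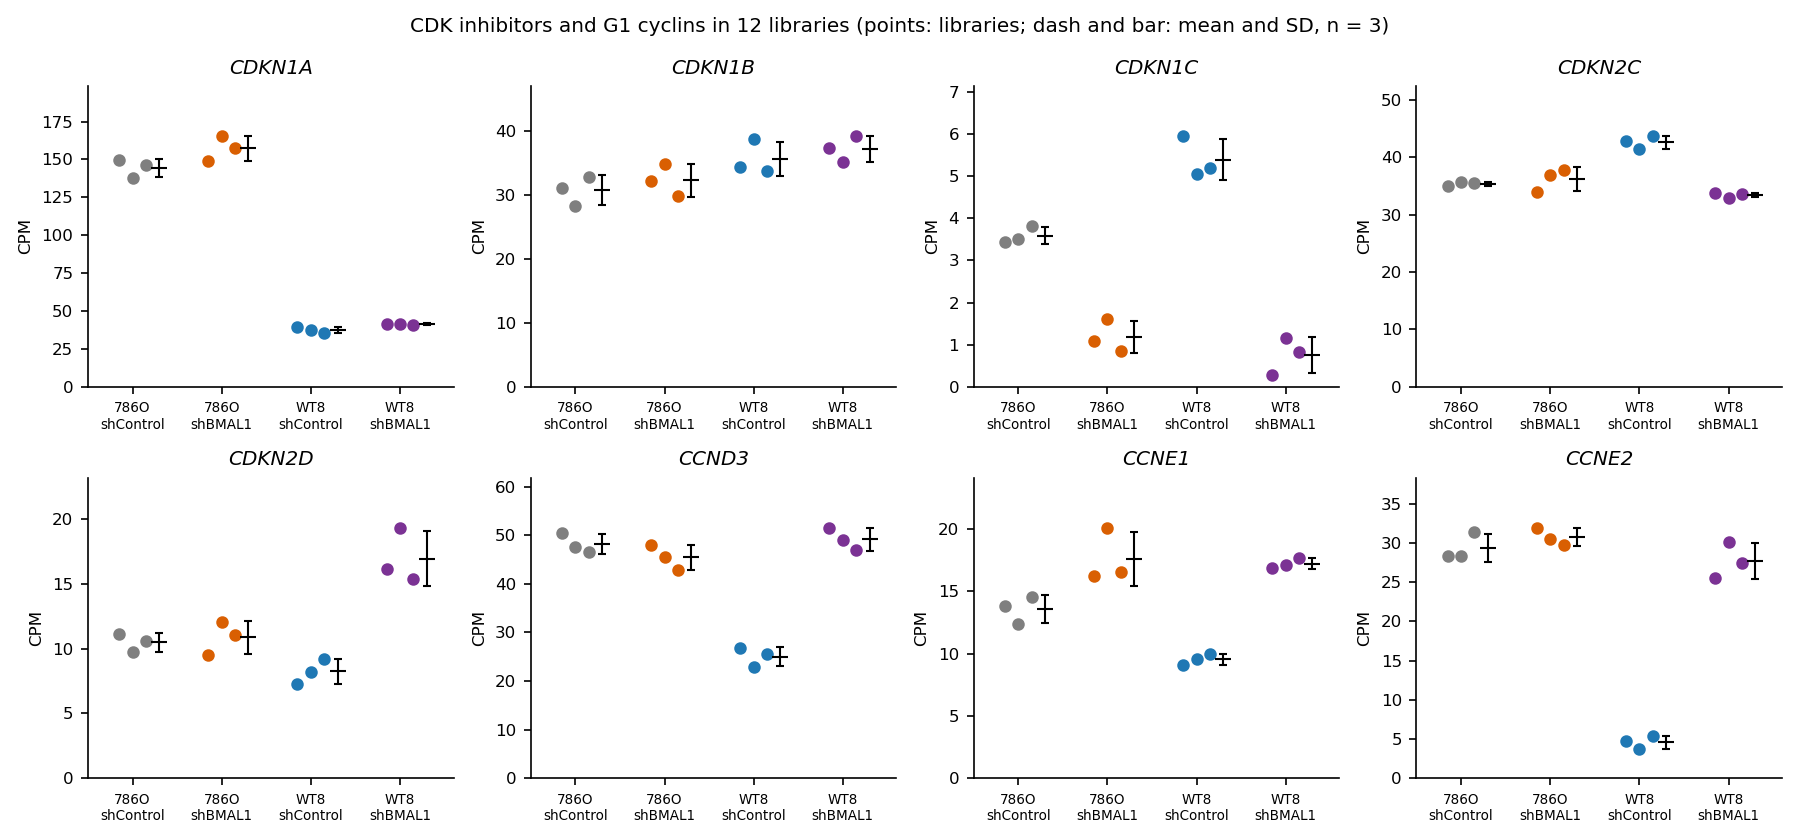
CPM (linear axis from 0) of the 8 tested members in each of the 12 libraries, by group; points are libraries, the dash and bar beside them the mean and SD (n = 3). WT8 *shControl* libraries sit at 3.68 to 5.36 CPM for *CCNE2*, below all other libraries, *CDKN1C* is low in all *shBMAL1* libraries, and *CDKN1A* is low in all WT8 libraries.

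Among the cyclins, *CCNE2* (GRCh37, chromosome 8, 95891998 to 95908906, minus strand), which encodes cyclin E2, an activator of CDK2, changed most. Its level was 28.3, 28.3 and 31.4 CPM in the replicates of 786O *shControl*, and 31.9, 30.5 and 29.8 in 786O *shBMAL1*. In WT8 *shControl* it was 4.73, 3.68 and 5.36 CPM, from 127 to 197 counts, and in WT8 *shBMAL1* it was 25.6, 30.1 and 27.4. The WT8 *shControl* libraries were low and stood apart from the other groups, which overlapped among themselves. With *shBMAL1* the log2 level rose by 2.59 in WT8 (SE 0.10, adjusted p = 1.57e-22), a change larger in size than that of 96.1% of genes tested. In 786O the log2 change was 0.07 (SE 0.08, adjusted p = 0.557), and the interaction was 2.52 (SE 0.13, adjusted p = 2.28e-18). Between the lines, *CCNE2* fell by 2.67 on the log2 scale with *shControl* (SE 0.10, adjusted p = 2.71e-23), or 6.37-fold. With *shBMAL1* the difference between the lines was −0.15 (SE 0.08, adjusted p = 0.105), not past the threshold, and it was called in 3 of 12 fits that each left out 1 library (−0.21 to −0.09 over the 12). The gene overlaps *INTS8* and *NDUFAF6* on the other strand, and the sources do not say whether strand was used in counting.

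*CCNE1* (chromosome 19, 30302898 to 30315219, plus strand) encodes cyclin E1, the other activator of CDK2 in G1. It was counted at 13.9, 12.4 and 14.5 CPM in 786O *shControl* and at 16.2, 20.1 and 16.6 in 786O *shBMAL1*. WT8 *shControl* had 9.13, 9.54 and 9.95 CPM, and WT8 *shBMAL1* had 16.9, 17.1 and 17.7. All *shBMAL1* libraries were higher than all *shControl* libraries of either line. Of the 3 tested G1 cyclins, *CCNE1* was the one called in 786O, with a log2 rise of 0.38 (SE 0.09, adjusted p = 0.00106), or 1.30-fold. In WT8 the rise was 0.85 (SE 0.09, adjusted p = 7.11e-10), or 1.81-fold, and the interaction was 0.48 (SE 0.13, adjusted p = 0.00272). The level in WT8 *shControl* was below that in 786O *shControl* (log2 change −0.51, SE 0.10, adjusted p = 1.46e-05), while the lines with *shBMAL1* differed by −0.03 (SE 0.09, adjusted p = 0.770).

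*CCND3* (chromosome 6, 41902672 to 42018095, minus strand), which encodes cyclin D3, an activator of CDK4 and CDK6, was higher in WT8 with *shBMAL1* but not called in 786O. Its level in 786O *shControl* was 50.4, 47.5 and 46.5 CPM, and in 786O *shBMAL1* it was 48.0, 45.6 and 42.8. In WT8 *shControl* it was 26.8, 22.9 and 25.5 CPM, and in WT8 *shBMAL1* 51.6, 49.0 and 46.9. Again the WT8 *shControl* libraries were low and the rest overlapped. The log2 change with *shBMAL1* was 0.97 in WT8 (SE 0.07, adjusted p = 3.80e-15), or 1.96-fold, and −0.08 in 786O (SE 0.06, adjusted p = 0.320). The interaction was 1.05 (SE 0.09, adjusted p = 5.99e-12). In WT8 against 786O it was −0.94 with *shControl* (SE 0.07, adjusted p = 5.25e-15) and 0.11 with *shBMAL1* (SE 0.06, adjusted p = 0.117), which was called in 3 of the 12 fits without 1 library (0.07 to 0.16).

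Of *CCND2* (chromosome 12, 4378937 to 4414519, plus strand), the other D cyclin of the list, there were at most 3 counts in any library. It was counted in 3 libraries, with 3 counts in 786O *shBMAL1* replicate 1, 2 in WT8 *shControl* replicate 2 and 3 in WT8 *shBMAL1* replicate 2, and at 0 in the rest. A level of 3 counts, the limit that a count of 0 allows if each count was a separate read pair, was 0.0797 to 0.0875 CPM in these libraries. No change was testable at this level, and the summed level of the listed D cyclins was therefore that of *CCND3*. D cyclins outside the list are not described here.

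**Figure D2:**
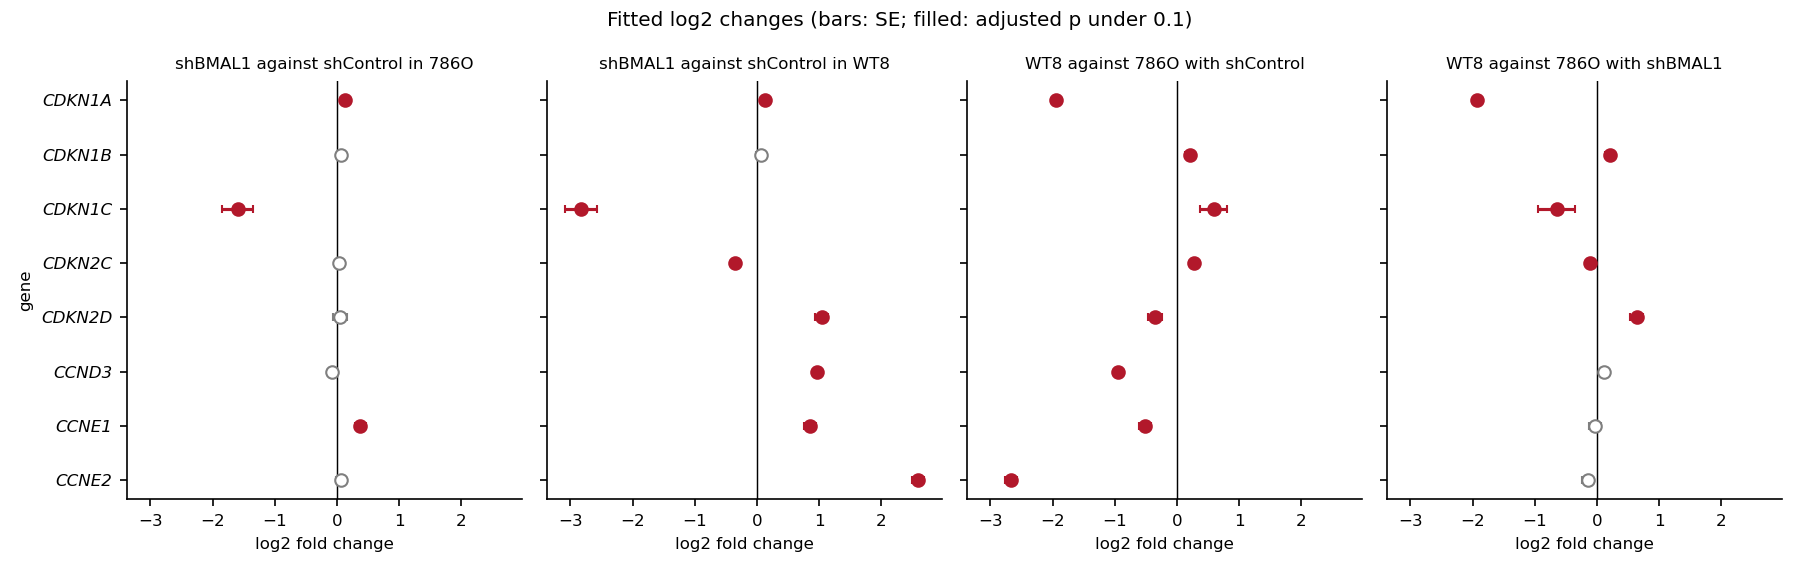
Fitted log2 fold changes of the 8 tested members (horizontal axis, bars are SE) in the 4 comparisons between groups of 3 libraries, with filled points for an adjusted p under 0.1. The cyclins lie right of 0 with *shBMAL1* in WT8, left of 0 in WT8 against 786O with *shControl*, and near 0, uncalled, in WT8 against 786O with *shBMAL1*.

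Among Cip/Kip inhibitors, *CDKN1C* (chromosome 11, 2904443 to 2907005, minus strand), which encodes p57, had the largest change with *shBMAL1*. It was counted at 3.44, 3.52 and 3.81 CPM in 786O *shControl* and 1.09, 1.61 and 0.862 in 786O *shBMAL1*. In WT8 *shControl* it was 5.95, 5.05 and 5.19 CPM, and in WT8 *shBMAL1* 0.292, 1.15 and 0.830. All *shBMAL1* libraries were below all *shControl* libraries. The counts behind them were low, at 11 to 56 with *shBMAL1* and 118 to 219 with *shControl*. The log2 level fell by 1.59 in 786O (SE 0.25, adjusted p = 4.12e-06) and by 2.83 in WT8 (SE 0.26, adjusted p = 3.46e-11), larger in size than 96.1% and 97.2% of genes tested. The fall was larger in WT8 (interaction −1.24, SE 0.37, adjusted p = 0.00574). With *shControl*, WT8 was higher than 786O by 0.59 (SE 0.21, adjusted p = 0.0135). With *shBMAL1*, WT8 was lower by a log2 change of −0.65 (SE 0.30, adjusted p = 0.0570), the groups overlapped, and the call was lost without 786O *shBMAL1* replicate 2 (log2 change −0.36) or without WT8 *shBMAL1* replicate 1 (−0.26).

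*CDKN1A* (chromosome 6, 36644237 to 36655114, plus strand), which encodes p21, a target of p53, separated the lines. The replicates had 149, 138 and 146 CPM in 786O *shControl* and 149, 165 and 158 in 786O *shBMAL1*. In WT8 they had 39.7, 37.5 and 35.8 CPM with *shControl* and 41.3, 41.8 and 40.7 with *shBMAL1*. Every WT8 library was lower than every 786O library. WT8 against 786O gave a log2 change of −1.94 with *shControl* (SE 0.05, adjusted p = 1.96e-27) and −1.93 with *shBMAL1* (SE 0.05, adjusted p = 1.96e-27). The change with *shBMAL1* was 0.12 in 786O (SE 0.05, adjusted p = 0.0412), or 1.09-fold, where the groups overlapped, and 0.13 in WT8 (SE 0.05, adjusted p = 0.0338), or 1.10-fold. Both of these small changes rested on single libraries. The call in 786O was lost without *shControl* replicate 2 (log2 change 0.09, adjusted p = 0.240) or *shBMAL1* replicate 2 (0.08, adjusted p = 0.258), and the call in WT8 was lost without *shControl* replicate 3 (0.10, adjusted p = 0.165). The interaction was 0.01 (SE 0.07, adjusted p = 0.949).

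*CDKN1B* (chromosome 12, 12838432 to 12875303, plus strand), which encodes p27, was at 31.2, 28.3 and 32.9 CPM in 786O *shControl* and 32.2, 35.0 and 29.8 in 786O *shBMAL1*. WT8 had 34.4, 38.8 and 33.9 CPM with *shControl* and 37.4, 35.2 and 39.3 with *shBMAL1*. Neighbouring groups in the order of their means overlapped throughout. The change with *shBMAL1* was 0.07 in 786O (SE 0.07, adjusted p = 0.483) and 0.06 in WT8 (SE 0.07, adjusted p = 0.448), and the interaction was −0.01 (SE 0.10, adjusted p = 0.986). WT8 was above 786O by a log2 difference of 0.21 with *shControl* (SE 0.07, adjusted p = 0.0105) and 0.21 with *shBMAL1* (SE 0.07, adjusted p = 0.0133), or 1.16-fold and 1.15-fold. The difference with *shControl* was 0.15 without 786O *shControl* replicate 2 (adjusted p = 0.1005), and no longer called.

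The INK4 inhibitors moved apart from each other in WT8. *CDKN2D* (chromosome 19, 10677136 to 10679735, minus strand), which encodes p19, had 11.1, 9.72 and 10.6 CPM in 786O *shControl* and 9.48, 12.1 and 11.0 in 786O *shBMAL1*. In WT8 it had 7.29, 8.21 and 9.22 CPM with *shControl* and 16.1, 19.3 and 15.3 with *shBMAL1*. WT8 *shBMAL1* was highest, WT8 *shControl* lowest, and neither overlapped another group. It rose with *shBMAL1* by 1.04 on the log2 scale in WT8 (SE 0.11, adjusted p = 1.70e-10), or 2.05-fold, while the change in 786O was 0.05 (SE 0.11, adjusted p = 0.750). The interaction was 0.99 (SE 0.15, adjusted p = 1.44e-06). WT8 against 786O was −0.35 with *shControl* (SE 0.11, adjusted p = 0.00581) and 0.64 with *shBMAL1* (SE 0.11, adjusted p = 1.91e-06), so the order of the lines turned with the shRNA.

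*CDKN2C* (chromosome 1, 51426417 to 51440306, plus strand), which encodes p18 and whose windows held the E-boxes printed above, moved the other way. It had 35.0, 35.7 and 35.5 CPM in 786O *shControl* and 34.0, 37.0 and 37.8 in 786O *shBMAL1*. WT8 *shControl* had 42.8, 41.5 and 43.7 CPM, above all other libraries, and WT8 *shBMAL1* had 33.8, 33.0 and 33.6, below them. With *shBMAL1* it fell by 0.35 on the log2 scale in WT8 (SE 0.06, adjusted p = 6.45e-06), or 1.28-fold, and the change in 786O was 0.04 (SE 0.06, adjusted p = 0.691). The interaction was −0.39 (SE 0.09, adjusted p = 0.000357). WT8 was above 786O with *shControl* by 0.27 (SE 0.06, adjusted p = 0.000189). With *shBMAL1* the difference was −0.12 (SE 0.06, adjusted p = 0.0986), and it kept its call in 1 of 12 fits that each left out 1 library.

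*CDKN2B* (chromosome 9, 22002902 to 22009304, minus strand), which encodes p15, had 0 counts in all 12 libraries. This allows a level of up to 0.0797 to 0.0875 CPM if each count was a separate read pair. The antisense gene *CDKN2B-AS1* on the other strand had 0 or 1 count per library. Genes on either side were counted, *MTAP* (21802635 to 21937650) at 1247 to 2210 counts and *DMRTA1* (22446823 to 22455739) at 195 to 521 counts. These 3 neighbours were chosen after their values were seen.

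**Figure D3:**
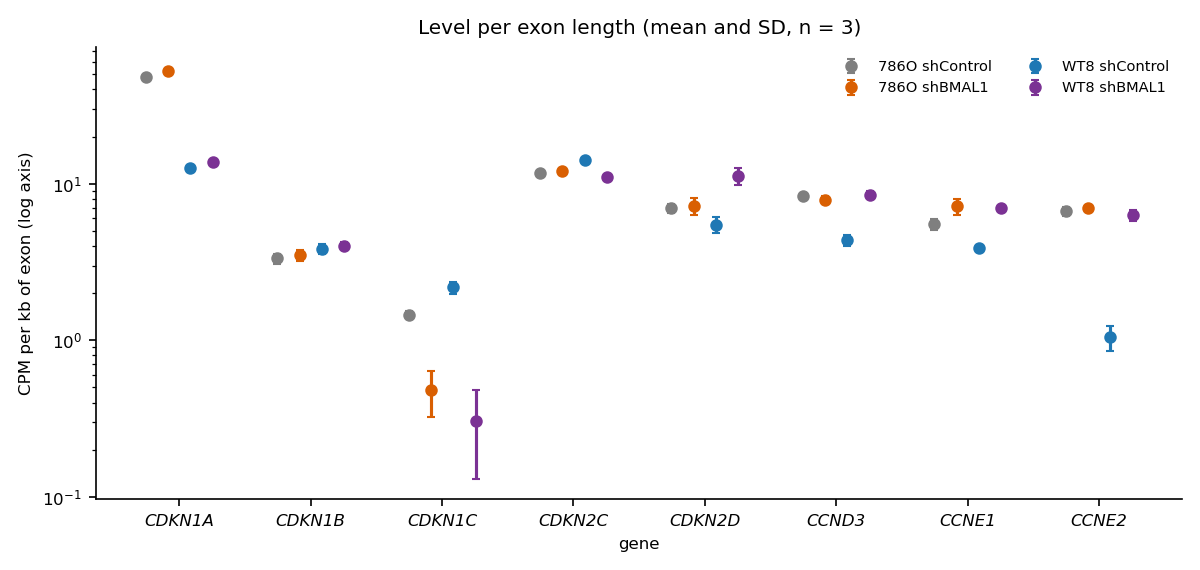
Level per kb of exon (CPM divided by exon length, log axis) of the 8 tested members by group; points are means and bars SD (n = 3). *CDKN1A* leads in 786O at 48.2 to 52.5 CPM per kb, and the *CDKN1C* points with *shBMAL1* and the *CCNE2* point in WT8 *shControl* lie lowest against their own other groups.

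Compared between genes per kb of exon, *CDKN1A* was the most abundant member in 786O, at 48.2 ± 2.02 CPM per kb (SD, n = 3) with *shControl*. *CDKN2C* followed at 11.7 ± 0.124 and *CCND3* at 8.36 ± 0.352, and *CDKN1C* was the lowest of the tested members at 1.45 ± 0.0784. In WT8 *shControl*, *CDKN2C* at 14.1 ± 0.379 CPM per kb stood above *CDKN1A* at 12.6 ± 0.646, and *CCNE2* at 1.04 ± 0.192 was the lowest. In WT8 *shBMAL1* the 3 cyclins were again near each other, *CCND3* at 8.53 ± 0.407, *CCNE1* at 7.01 ± 0.180 and *CCNE2* at 6.30 ± 0.512 CPM per kb. Exon lengths are unions over all transcripts of the annotation, so a level per kb understates genes that use a short part of them.

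The sums here run over the listed members and not over whole families. The G1 cyclins held 88.1 to 92.6 CPM in 786O *shControl* and 89.1 to 96.2 in 786O *shBMAL1*. In WT8 they held 36.1 to 40.8 CPM with *shControl* and 92.0 to 96.3 with *shBMAL1*. Only WT8 *shControl* was outside the range of the other groups. Cip/Kip inhibitors summed to 170 to 202 CPM over the 786O libraries and to 74.9 to 81.3 over the WT8 libraries. *CDKN1A* made up most of the sum in 786O, while in WT8 *shControl* its mean of 37.7 CPM stood beside 35.7 for *CDKN1B*. INK4 inhibitors summed to 43.5 to 52.9 CPM over all libraries, with *CDKN2C* and *CDKN2D* moving in opposite directions inside it in WT8.

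**Figure D4:**
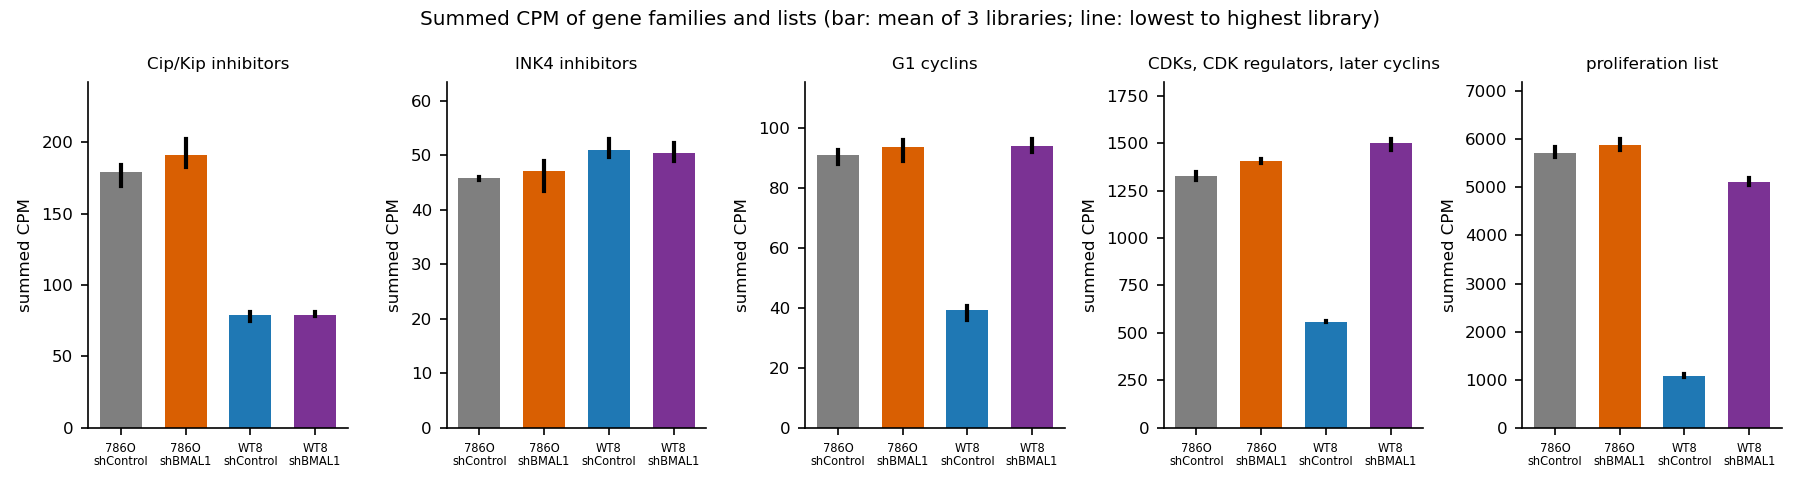
Summed CPM (linear axes from 0) of member families and of the lists of CDKs, their activating and inhibitory regulators and later cyclins, and of proliferation genes, by group; bars are means of 3 libraries and lines run from the lowest to the highest library. G1 cyclins and both lists are lowest in WT8 *shControl*, at 36.1 to 40.8, 556 to 563 and 1053 to 1114 CPM.

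The kinases that the members bind differed by group as well. *CDK2*, the partner of the E cyclins, was at 44.4 ± 0.898 CPM in 786O *shControl* and 43.0 ± 2.12 in 786O *shBMAL1*. In WT8 it was at 14.0 ± 1.18 CPM with *shControl* and 55.2 ± 1.31 with *shBMAL1*. It rose with *shBMAL1* in WT8 by 1.98 on the log2 scale (SE 0.07, adjusted p = 5.58e-24), and the change in 786O was −0.05 (SE 0.06, adjusted p = 0.595). *CDK4* rose with *shBMAL1* in WT8 by 0.48 (SE 0.04, adjusted p = 6.05e-12) and fell slightly in 786O, by 0.10 (SE 0.04, adjusted p = 0.0704). *CDK6* rose in both lines, by 0.97 in WT8 (SE 0.09, adjusted p = 3.16e-12) and by 0.19 in 786O (SE 0.07, adjusted p = 0.0314). Unlike the cyclins, *CDK6* stayed lower in WT8 than in 786O with *shBMAL1* (log2 change −1.61, SE 0.08, adjusted p = 4.94e-20), at 14.0 ± 0.882 against 42.6 ± 2.50 CPM.

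A list of 16 genes held CDKs, later cyclins, the CDK-activating kinase and CDC25 phosphatases, and also *WEE1* and *PKMYT1*, kinases that inhibit CDK1. Of the 16, 15 rose and 1 fell with *shBMAL1* in WT8 (median log2 change 1.41, against −0.04 over all genes tested), led by the inhibitory kinase gene *PKMYT1* (3.15), *CCNA2* (2.76) and the activating phosphatase gene *CDC25A* (2.45). In 786O, 6 rose and 3 fell (median 0.05), led by *CDC25C* (−0.68), *PKMYT1* (0.46) and *CDK1* (0.42). In WT8 against 786O, 1 rose and 13 fell with *shControl* (median −1.74), and 8 rose and 6 fell with *shBMAL1* (median 0.09), where the germline-type cyclin A gene *CCNA1* (−5.86, on 0 to 12 counts in WT8 *shBMAL1*) and *CDK6* (−1.61) were furthest from 0. For the interaction, 14 were called higher and 1 lower. Of all genes tested, 32.9% rose and 36.9% fell with *shBMAL1* in WT8, and 24.5% and 24.4% in 786O. Between the lines the shares were 39.3% and 40.2% with *shControl* and 36.0% and 37.0% with *shBMAL1*, and for the interaction 27.4% and 28.5%.

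The retinoblastoma partner and E2F list had 12 genes, and 10 rose and 1 fell with *shBMAL1* in WT8 (median 0.96). The largest were *E2F8* (log2 change 4.08), *E2F1* (3.32) and *E2F2* (3.28), factors whose own transcripts rise around the entry into S phase in dividing cells. *E2F1* was at 62.7 ± 1.95 CPM with *shControl* and 68.1 ± 2.34 with *shBMAL1* in 786O, and at 6.33 ± 0.948 and 63.2 ± 3.27 in WT8. In 786O, 6 rose and 2 fell (median 0.15), led by *TFDP2* (−0.86), *E2F5* (0.65) and *E2F6* (0.56). Between the lines, 4 rose and 6 fell with *shControl*, and 6 rose and 4 fell with *shBMAL1*. For the interaction, 7 were called higher and 3 lower. Of all genes tested, 32.9% rose and 36.9% fell with *shBMAL1* in WT8, and 24.5% and 24.4% in 786O. Between the lines the shares were 39.3% and 40.2% with *shControl* and 36.0% and 37.0% with *shBMAL1*, and for the interaction 27.4% and 28.5%. The counts of this list between the lines are not read as a result.

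A list of 26 proliferation genes, most of them of DNA replication and mitosis, moved with the cyclins. With *shBMAL1* in WT8, 26 rose and 0 fell (median 2.31), led by the replication genes *CDC45* (3.81), *GINS2* (3.78) and *CDC6* (3.29). In WT8 against 786O with *shControl*, 0 rose and 26 fell (median −2.35). In 786O with *shBMAL1*, 10 rose and 5 fell (median −0.01), led by *GINS2* (0.50), and in WT8 against 786O with *shBMAL1*, 6 rose and 16 fell (median −0.17). All 26 were called higher for the interaction. Of all genes tested, 32.9% rose and 36.9% fell with *shBMAL1* in WT8, and 24.5% and 24.4% in 786O. Between the lines the shares were 39.3% and 40.2% with *shControl* and 36.0% and 37.0% with *shBMAL1*, and for the interaction 27.4% and 28.5%. The list summed to 5632 to 5999 CPM over the 786O libraries, 1053 to 1114 over those of WT8 *shControl* and 5048 to 5195 over those of WT8 *shBMAL1*. The part of this difference between the cultures in the member values was not tested.

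Genes for the ubiquitin ligases that degrade the inhibitors and cyclins were called in both directions, as were genes over the whole set tested. Of 14, 5 rose and 8 fell with *shBMAL1* in WT8, where 32.9% of all genes tested rose and 36.9% fell. The median log2 change was −0.11, against −0.04 over all genes tested. The largest changes were those of *DTL* (log2 change 3.42) and *CKS1B* (1.56), which help to target p21 and p27, and *CUL4B* (−0.72). In 786O, 2 rose and 7 fell (median −0.11), against 24.5% and 24.4% of all genes tested. *CUL4B* (−0.93), *RNF123* (−0.50) and *FBXW7* (−0.43) led, the last a receptor for cyclin E. With *shControl*, 4 were higher and 7 lower in WT8 than in 786O, against 39.3% and 40.2% of all genes tested. With *shBMAL1*, 6 were higher and 4 lower, against 36.0% and 37.0%. The interaction was called higher for 7 and lower for 3, against 27.4% and 28.5% of all genes tested. *DTL* (3.57), *CKS1B* (1.56) and *SKP2* (1.03) came first.

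Beside *CDKN1A*, 20 other genes that respond to p53 were read. In WT8 against 786O, 7 rose and 12 fell with *shControl* (median −0.58), led by *DDB2* (−3.11), *FAS* (−2.18) and *BBC3* (−2.08), and 4 rose and 14 fell with *shBMAL1* (median −0.44), led by *GDF15* (−3.14), *FAS* (−2.38) and *BTG2* (1.81). With *shBMAL1*, 3 rose and 10 fell in 786O (median −0.21) and 7 rose and 10 fell in WT8 (median −0.02), and the stress cytokine gene *GDF15* had the largest log2 change in both lines, at −1.09 and −3.36. The interaction was called higher for 8 and lower for 6. Of all genes tested, 39.3% rose and 40.2% fell in WT8 against 786O with *shControl*, and 36.0% and 37.0% with *shBMAL1*. The shares that changed with *shBMAL1* were 24.5% and 24.4% in 786O and 32.9% and 36.9% in WT8. For the interaction they were 27.4% and 28.5%. The counts of these 20 genes are not read as a result.

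By the shape of the 4 group means of log2 CPM after centring, the nearest of 12940 other genes to *CCNE2* were *C1orf112* and *WDR62*, at a root mean square difference of 0.0243 and 0.0308 against a range of 2.73 for *CCNE2*. The nearest to *CDKN1A* was *CMIP* (0.0426, range 2.06), and the nearest to *CCNE1* was *TSPAN12* (0.00901, range 0.87). *CDKN1C* had the most distant neighbour, *OGDHL* at 0.185 with a range of 2.83. For *CCND3* it was *NXT2* (0.0255), for *CDKN2D* *KIF21A* (0.0184), for *CDKN2C* *RRP9* (0.0122) and for *CDKN1B* *EEF1D* (0.00342). With 4 group means, these distances describe likeness of level only.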

How the data were processed

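RNA was isolated on spin columns and sequenced by BGI from stranded mRNA libraries as read pairs. According to the study's methods, the authors used SeqMan NGen for alignment, with GRCh37 as the build, and took counts from ArrayStar, whereas the submitters' processing notes name hg38, STAR and DESeq2. Which of these made the table is not settled. The authors deposited estimated counts per gene, not scaled between libraries. A value of 0.028 stood in for 0 (47.0% of values) and was set to 0, 5.67% of the other values were not whole, 45 names on 98 lines (0.100% of counts) were summed, and values were rounded. A count of 2 occurred more often (14904 times) than a count of 1 (11312), so mates of a pair may have been counted separately. Floors of 3 counts cover counting error only, and would be higher if mates were counted separately.

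edgeR 4.0.16 (R 4.3.3) was fitted over all 12 libraries with a mean per group, after filterByExpr (16838 of 26925 genes with a count) and TMM scaling (factors 0.948 to 1.04), with a robust quasi-likelihood F test and Benjamini-Hochberg adjustment. Genes were called at an adjusted p under 0.1, the false discovery rate of the study. SE was taken from F, as the absolute log2 change over its square root. The common biological coefficient of variation was 5.70%, and replicates correlated at r = 0.996 to 0.997 across genes. Counts of each replicate pair differed by more than sampling noise (chi-square per gene 4.51 to 12.6), so none was merged. Scripts were tested on simulated counts. Alternatives were RLE scaling, other filters, DESeq2 1.42.0, limma-voom 3.58.1, a threshold of 0.05, a minimum fold of 1.5 (glmTreat), fits of the compared groups alone, a replicate block and leaving out each library. Members, lists, tests and the rule for named genes (all members, CDK2, CDK4 and CDK6, at most 3 called genes per list and comparison with the largest change, and the 2 nearest genes by group means) were chosen with earlier results of these data known. Gene positions and exon lengths are from GENCODE on GRCh37, and promoter windows from RefSeq on GRCh38.p14, which were not combined by coordinate. No window was at hand for *CDKN1C* and *CCND2*, and *CCNE2* was searched but left out of the reported matches by choice.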

Additional observations from a re-analysis of the deposited data

Results flagged for a closer look

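For 6 of the 8 tested members, the change with *shBMAL1* differed between WT8 and 786O in the test of the difference itself (edgeR, adjusted p from 2.28e-18 to 0.00574). The log2 change in WT8 minus that in 786O was 2.52 for *CCNE2*, 1.05 for *CCND3*, 0.99 for *CDKN2D* and 0.48 for *CCNE1*, where the WT8 change was the higher one. It was −1.24 for *CDKN1C* and −0.39 for *CDKN2C*, where it was the lower one. This test called 56.0% of all genes tested, and WT8 *shControl* enters it for each of the 6 genes.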

How the results depend on the processing

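The 3, 7, 8, 5 and 6 members called (786O, WT8, the lines with *shControl*, the lines with *shBMAL1*, and the interaction) became 1, 5, 3, 1 and 4 when a fold over 1.5 was required (glmTreat), and 3 for the lines with *shBMAL1* at an adjusted p under 0.05. Leaving out 1 library gave 2 to 3, 6 to 7, 7 to 8, 3 to 6 and, in every fit, 6 members. The lines with *shBMAL1* fell to 3 without 786O *shBMAL1* replicate 2 or WT8 *shBMAL1* replicate 1, since *CDKN1C* and *CDKN2C* then lost their calls. Over all genes, glmTreat called 990, 4313, 6993, 5023 and 3134 in place of 8237, 11753, 13378, 12295 and 9427. A mean of at least 50 counts ended the *CDKN1A* call in WT8 (log2 change 0.09, adjusted p = 0.115). Between the lines with *shBMAL1*, a fit of the compared groups alone ended the calls of *CDKN1C* (−0.64, adjusted p = 0.122) and *CDKN2C* (−0.11, adjusted p = 0.131). That fit called *CCND3* (0.12, adjusted p = 0.0874) and *CCNE2* (−0.15, adjusted p = 0.0747), uncalled in the main fit. There limma-voom also called *CCND3* (adjusted p = 0.0979) and *CCNE2* (adjusted p = 0.0662), and the filter of 50 counts called *CCND3* (0.14, adjusted p = 0.0497).

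Of the changes of single members under the alternatives, 764 kept direction and side of the threshold, 41 lost and 11 gained a call, and 16 changed sign, all of them uncalled changes near 0. Leaving out 1 library gave −0.00033 to 0.077 for *CDKN2C* and −0.036 to 0.14 for *CDKN2D* in 786O (−0.0052 without *shControl* replicate 2), and −0.088 to 0.079 for *CCNE1* between the lines with *shBMAL1*. For the interaction it gave −0.023 to 0.057 for *CDKN1A* (with −0.0094 and −0.022 between), which was −0.0077 with RLE or DESeq2 and −0.029 with the filter of 50 counts. *CDKN1B* ran from −0.053 to 0.066 (with 0.0037, 0.047, 0.059 and 0.063 between) and was 0.011 with no filter. The cause was not tested. Levels moved by more than their SD in 5 of 40 values on plain totals and in 0 with RLE.

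Same-numbered replicates of different groups did not deviate together (r −0.057 to 0.068), so the numbers are not taken to pair samples. With the replicate number as a block, 3, 7, 8, 4 and 6 members were called, *CDKN2C* between the lines with *shBMAL1* being lost (adjusted p = 0.116). *CCND2* and *CDKN2B* had too few counts to be tested, and *CDKN1C* with *shBMAL1* rests on 11 to 56 counts. The reason for the low counts was not tested.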
